A study of Mus musculus with 6 samples.

Results

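The neural plate border and crest factors described here are 10 transcription factor genes, Tfap2a, Tfap2b, Tfap2c, Msx1, Msx2, Msx3, Dlx3, Dlx5, Snai2 and Twist1. They were found by symbol among the 23235 gene rows of the RNA-seq table, and all 10 have a row. RNA was sequenced from E14Tg2a cells, a feeder-independent line of mouse embryonic stem cells, at passages 37 to 40, so that all samples come from 1 cell line. Each sample was taken from a pair of plates. The ESC group (3 samples) was kept with leukemia inhibitory factor (LIF), and the NC group (3 samples) was grown without LIF and with 1 µM retinoic acid (RA) for 48 h, a treatment that the study uses to make neuronal cells. The table holds a single value per gene and condition, which the authors' software estimated from the 3 samples together, in FPKM (fragments scaled to transcript length and to the number of mapped fragments). The spread between samples is therefore unknown, and every comparison below is a description with no test. In these bulk cultures, fewer cells of a type and less RNA per cell cannot be told apart.

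The neural plate border is the strip of ectoderm between the neural plate and the future epidermis. Intermediate BMP signaling, together with Wnt and FGF signals, turns on border genes there, among them the Tfap2, Msx and Dlx families. These in turn act upstream of crest genes such as Snai2 and Twist1, whose products repress epithelial genes and accompany the exit of crest cells from the neural tube. Several of the factors also have other sites of action. Tfap2c acts in trophoblast and primordial germ cells, Dlx3 in placenta and epidermis, Msx3 in the dorsal neural tube, and Twist1 in mesoderm.

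The RefSeq promoter table (GRCm38.p6) held 7 windows for 6 of the 10 genes, Tfap2a, Tfap2b, Msx1, Msx2, Msx3 and Twist1. Each window spans 300 bases, 250 before and 50 after a transcription start. The windows were searched on both strands for AGGTCA, the core bound by retinoic acid receptors, for the same core repeated in one direction with 5 (DR5) or 2 (DR2) bases between the copies, for GGCGCC, for CAGGTG, an E-box bound by Snai and Zeb proteins, for GCCNNNGGC, the AP-2 core, and for TAATTG, a core bound by homeodomain proteins of the Msx and Dlx type. The bases before the start are shown for the 3 genes whose windows held one of these motifs upstream, with the motif in capitals.
Tfap2b, chr1:19211804-19212053, plus strand: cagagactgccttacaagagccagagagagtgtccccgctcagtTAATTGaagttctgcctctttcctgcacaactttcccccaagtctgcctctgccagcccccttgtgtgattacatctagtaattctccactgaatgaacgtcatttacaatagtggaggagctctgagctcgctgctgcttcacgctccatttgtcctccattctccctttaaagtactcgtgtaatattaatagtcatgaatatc
Tfap2a, chr13:40734921-40735170, minus strand: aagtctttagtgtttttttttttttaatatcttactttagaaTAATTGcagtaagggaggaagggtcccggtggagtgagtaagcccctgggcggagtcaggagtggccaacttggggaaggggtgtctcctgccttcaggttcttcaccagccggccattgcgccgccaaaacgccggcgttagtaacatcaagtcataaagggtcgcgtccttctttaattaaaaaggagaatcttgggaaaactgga
Msx1, chr5:37824586-37824835, minus strand: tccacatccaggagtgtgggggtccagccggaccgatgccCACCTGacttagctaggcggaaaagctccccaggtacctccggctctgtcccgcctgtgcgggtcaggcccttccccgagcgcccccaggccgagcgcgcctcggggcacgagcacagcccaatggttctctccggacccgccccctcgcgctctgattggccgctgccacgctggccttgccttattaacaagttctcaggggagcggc

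The Tfap2b and Tfap2a sequences each held TAATTG, 206 and 208 bases before the start, and the Tfap2b window held the same motif once more on the other strand, across the start. TAATTG was found in 8% of all 32851 promoter windows. The Msx1 sequence held CACCTG, which is CAGGTG read on the other strand, 210 bases before the start, and 20.2% of all windows held this motif. GGCGCC was found in the Tfap2b window, 41 bases after the start, and in 11.9% of all windows. AGGTCA, DR5, DR2 and GCCNNNGGC were in 0 of the 7 windows, against 16.3%, 0.00913%, 0.00913% and 16.6% of all windows. In the GENCODE M21 annotation, the Tfap2b sequence lies in an intron of the longer Tfap2b transcripts and directly before the start of a shorter one, the Tfap2a sequence lies in an intron of the longest Tfap2a transcript and overlaps an exon of the antisense gene Gm26688, and the Msx1 sequence lies before the gene. The Msx1 window was rich in CpG, with 29 CpG and a GC content of 70%, against a median of 7 CpG and 52.7% over all windows. The Tfap2b window, with 8 CpG and 48.3%, and the Tfap2a window shown, with 11 CpG and 46.3%, were below the median in GC content. The remaining windows, of Msx2, Msx3, Twist1 and the other Tfap2a start, held 15 to 27 CpG. A match is a description of the letters and was not tested as a binding site.

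Of the 10 genes, 8 were at least 2-fold higher in NCs than in ESCs and 1, Tfap2c, was at least 2-fold lower. The background was 12.6% of the 13955 genes with a mean of at least 0.5 FPKM over both conditions for higher levels, and 10.7% for lower levels. With each column scaled to its sum, which shifts every log2 ratio by 0.29, the background became 17.99% higher and 7.38% lower, while the counts among the 10 genes stayed at 8 and 1. Dlx5 had a mean under 0.5 FPKM and is given by its values alone. The filter on the mean fixed part of these calls in advance, and bears on the median below. Tfap2a, Tfap2b, Msx1 and Msx3 stood at 0.207, 0.0332, 0.117 and 0.0896 FPKM in ESCs. At such ESC levels a gene passes the filter only when it is at least 2-fold higher in NCs. The same holds, in either direction, for genes of the background and of the lists below that are very low in 1 condition. The median log2 ratio of NC over ESC was 3.03 over the 9 genes with a mean of at least 0.5 FPKM. It was -0.03 over those of the 13955 genes with a level above 0 in both conditions. A level at least 8-fold higher in NCs was seen for 5 of the 9, Tfap2a, Tfap2b, Msx1, Msx3 and Twist1, and for 2.67% of the 13955 genes. This count depends on how low values are treated, and was 3 with a pseudocount of 0.1 (2.13% of the 13955 genes) and 0 with a pseudocount of 1 (0.846%). At their ESC levels, Tfap2b and Msx3 could pass the filter on the mean only when at least 8-fold higher in NCs. Gene positions below are on GRCm38, from GENCODE M21, and levels are given as the ESC value and then the NC value.

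**Figure D1:**
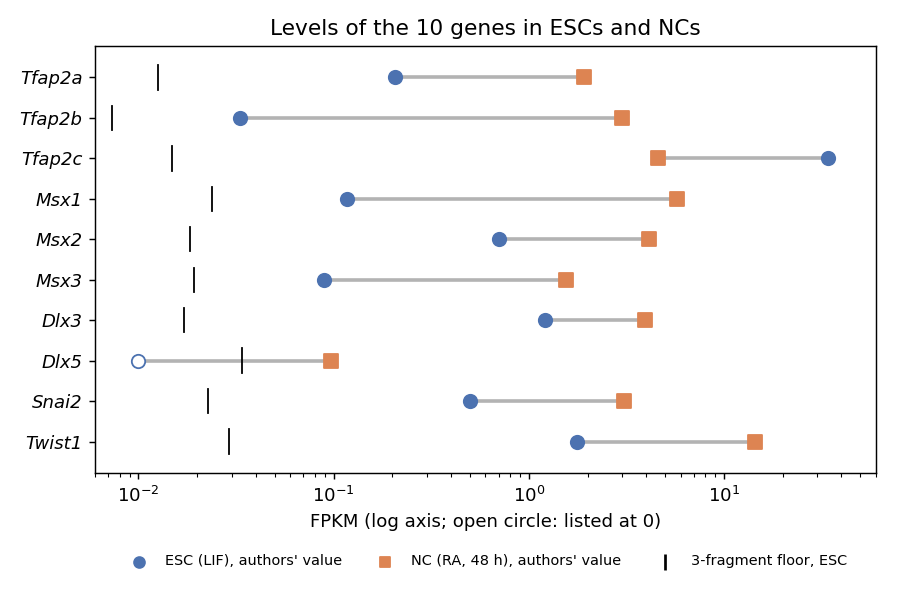
FPKM of each of the 10 genes on a log axis in ESCs (circles) and NCs (squares), each a single value estimated by the authors from 3 samples. Vertical ticks give the level that 3 fragments would give in ESCs, and the open circle stands for the Dlx5 value listed at 0. The NC value lies to the right of the ESC value for every gene except Tfap2c.

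**Figure D2:**
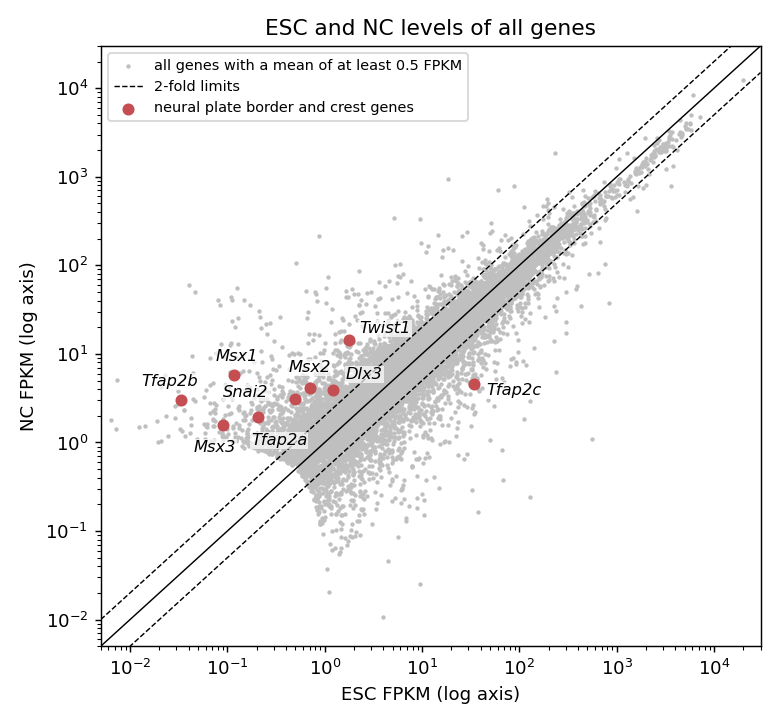
ESC FPKM against NC FPKM, both on log axes, for genes with a mean of at least 0.5 FPKM and a value above 0 in both conditions (gray), with 9 of the 10 genes in red. Dlx5, listed at 0 in ESCs, is not drawn. Of the red points, 8 lie above the upper 2-fold line and Tfap2c lies below the lower one.

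The AP-2 genes, whose products bind DNA as dimers of the family, differed in direction. Tfap2c, at chr2:172549593-172558622 and annotated in RefSeq with the synonym Stra2, stood at 34.0 FPKM in ESCs and at 4.59 FPKM in NCs, 7.41-fold lower (log2 ratio -2.89). Its ESC level was above that of 87.5% of all rows and its NC level above that of 59.3%. Tfap2b, at chr1:19208914-19238576, stood at 0.0332 FPKM in ESCs against 3.0 FPKM in NCs, 90.5-fold higher (log2 ratio 6.50), the largest ratio of the 10 genes. This ratio rests on a low ESC value, estimated at 13.6 fragments against 1251 in NCs. On the log2(FPKM + 1) scale, where low values weigh less, its difference was 1.95, below those of Msx1 (2.60) and Twist1 (2.48).

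Tfap2a, at chr13:40715302-40738376, encodes AP-2α, a regulator of both border and crest. Its level was 0.207 FPKM with LIF and 1.92 FPKM with RA, 9.26-fold higher (log2 ratio 3.21). The antisense genes Gm47061, Gm26688 and Gm47067 overlap it. Of its 50-base transcript words 10.2% also occur in transcripts of other genes, and whether counting used strand is not given in the sources used here. Of the paralogs outside the 10 genes, Tfap2e was at 0.322 and 0.685 FPKM in ESCs and NCs, and Tfap2d was listed at 0 in both. Summed over the 5 AP-2 genes, the level was 34.6 FPKM with LIF and 10.2 FPKM with RA. Tfap2c made up 98.4% of the sum in ESCs and 45.0% in NCs, where Tfap2b held 29.4% and Tfap2a 18.8%.

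Tfap2c also marks other cell types, and their markers are given beside it. All 8 ESC markers were at least 2-fold lower in NCs, with summed levels of 5949 FPKM with LIF and 935.6 FPKM with RA. Of 8 primordial germ cell markers, 3 were at least 2-fold lower in NCs and 1 was higher, and their sum was 97.7 FPKM with LIF and 43.9 FPKM with RA. Among them Dppa3 was at 58.6 and 7.85 FPKM and Prdm14, a regulator of germ cell fate that ESCs also express, at 4.88 and 0.217 FPKM. Dazl, an RNA-binding protein gene of germ cells, went the other way, at 4.35 and 9.46 FPKM, as did Ddx4, chosen after its values were seen, at 6.95 and 11.7 FPKM, within 2-fold. Without Dppa3, the germ cell list summed to 39.1 and 36.0 FPKM. Of the 11 trophoblast and amnion markers with a row, 6 had a mean of at least 0.5 FPKM, of which 2 were higher and 1 lower in NCs. The sum was 9.75 FPKM with LIF and 14.6 FPKM with RA, with the placental genes Tpbpa and Prl3d1 listed at 0 in both. Gata3 (0.204 and 4.02 FPKM), which is also a marker of non-neural ectoderm, had the largest difference of this list. The other higher gene was Plac1 (0.111 and 1.04 FPKM), and the lower was Ascl2 (2.65 and 0.899 FPKM). The part of these cell types in the Tfap2c levels was not tested.

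All 3 Msx genes, which encode homeodomain repressors, were higher in NCs. Msx1, at chr5:37820485-37824583, was at 0.117 FPKM in ESCs against 5.75 FPKM in NCs, 49.3-fold higher (log2 ratio 5.62). Msx2, at chr13:53466884-53473074, was at 0.704 and 4.11 FPKM, 5.84-fold higher. Msx3, at chr7:140046157-140049089, was at 0.0896 and 1.56 FPKM, 17.4-fold higher. The ESC values of Msx1 and Msx3 each correspond to an estimated 14 to 15 fragments, so that their ratios are less precise than that of Msx2, estimated at 115 fragments in ESCs. The summed Msx level was 0.911 FPKM with LIF and 11.4 FPKM with RA, 12.5-fold higher. Msx2 made up 77.4% of it in ESCs, and Msx1 made up 50.4% in NCs.

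The Dlx genes were low in both conditions apart from Dlx3. Dlx3, at chr11:95120119-95125296, was at 1.22 FPKM in ESCs against 3.94 FPKM in NCs, 3.24-fold higher, the smallest ratio among the 8 higher genes. Dlx5, at chr6:6877805-6882085, had a listed value of 0 in ESCs against 0.0972 FPKM in NCs, an estimated 8.75 fragments. The NC level that 3 fragments would give is 0.0333 FPKM, and a ratio against 0 has no finite value. Dlx6, the neighbor of Dlx5 in a bigene cluster, likewise had a value of 0 in ESCs, against 0.270 FPKM in NCs. The other paralogs stayed under 0.5 FPKM, with Dlx4, which adjoins Dlx3, at 0.423 and 0.383 FPKM, Dlx2 at 0.111 and 0.394 FPKM, and Dlx1 at 0.00733 and 0.0410 FPKM.

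Of the crest genes, Twist1 had the highest NC level of all 10 genes. Twist1, at chr12:33957671-33959829, encodes a basic helix-loop-helix factor of crest mesenchyme and mesoderm. It was at 1.76 FPKM in ESCs against 14.4 FPKM in NCs, 8.15-fold higher (log2 ratio 3.03), and moved from above 51.0% to above 76.1% of all rows. Its paralog Twist2 was at 0.483 and 1.86 FPKM, 3.84-fold higher, so that Twist1 made up 78.5% of the Twist sum in ESCs and 88.6% in NCs. Snai2, at chr16:14705852-14709385, encodes the zinc finger repressor Slug. Its level was 0.499 FPKM with LIF and 3.08 FPKM with RA, 6.16-fold higher.

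The 3 Snai genes differed in direction. Snai1, the main Snai gene of mouse gastrulation, was at 2.20 and 10.4 FPKM, 4.71-fold higher in NCs, while Snai3 was at 4.63 and 2.25 FPKM, 2.06-fold lower. Snai3 thus held 63.1% of the Snai sum in ESCs and 14.3% in NCs, Snai1 30.1% and 66.1%, and Snai2 6.81% and 19.6%. The Snai3 ratio is close to the limit of 2 and was under it with either rescaling of the columns. The summed level was higher in NCs for Msx, Dlx (2.91-fold), Snai (2.14-fold) and Twist, and 3.39-fold lower for Tfap2.

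**Figure D3:**
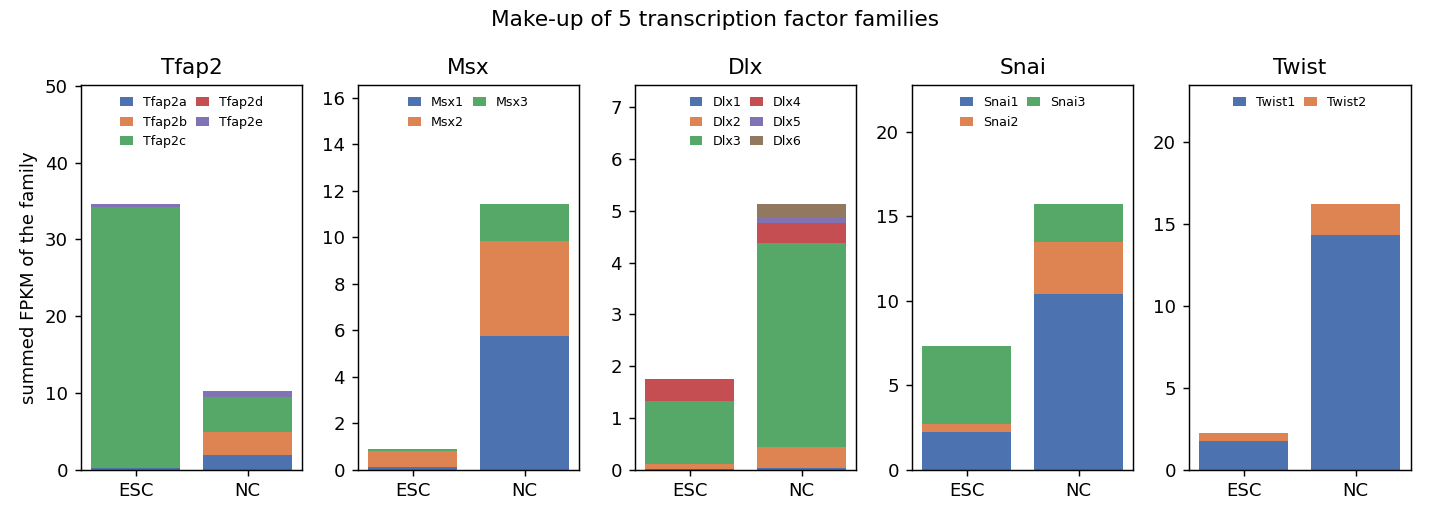
Stacked bars of the summed FPKM of the Tfap2, Msx, Dlx, Snai and Twist families in ESCs and NCs, one color per gene and a separate linear scale from 0 for each family. Tfap2c fills 98.4% of the ESC bar of its family and 45.0% of the NC bar, and the Snai bar passes from mostly Snai3 to mostly Snai1.

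The 10 genes summed to 38.6 FPKM with LIF and 42.4 FPKM with RA, 1.10-fold apart, but with a different make-up. Tfap2c supplied 88.0% of the ESC sum and 10.8% of the NC sum. Without it the other 9 genes summed to 4.63 and 37.8 FPKM, 8.17-fold higher in NCs. In ESCs, Tfap2c was 19.3-fold above the next gene, Twist1, and Dlx3, Msx2, Snai2, Tfap2a, Msx1, Msx3, Tfap2b and Dlx5 followed in falling order. In NCs, Twist1 was 2.5-fold above Msx1, and then Tfap2c, Msx2, Dlx3, Snai2, Tfap2b, Tfap2a and Msx3 lay between 1.03-fold and 1.57-fold below the gene before them. Dlx5 was 16.1-fold below Msx3. With no spread over samples, the order of neighbors this close cannot be told.

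The other genes of the border and the crest were split in direction. Of 11 further border genes with a row (Hes4 was not found), 10 had a mean of at least 0.5 FPKM, of which 5 were higher and 4 lower in NCs, with a median log2 ratio of 0.58. The lower count was 2 with each column scaled to its sum. Irx3 (0.835 and 39.4 FPKM) and Zic1 (0.0717 and 4.68 FPKM), both transcription factors of the neural plate, were higher. Klf4 (31.4 and 3.51 FPKM), which is also a pluripotency factor, was lower. Among the paired box genes of the border, picked out after their values were seen, Pax3 was at 0.0717 and 1.81 FPKM and Pax7 at 0.125 and 0.192 FPKM.

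Of 20 crest specifiers and genes of migrating crest, 11 were at least 2-fold higher in NCs, 3 were lower and 6 lay within 2-fold, with a median log2 ratio of 1.41. With a pseudocount of 1, 8 were higher and the median was 0.85. The largest differences were those of Id3 (9.56 and 337 FPKM), the nuclear receptors Nr2f1 (0.112 and 23.3 FPKM) and Nr2f2 (0.106 and 12.6 FPKM), and the endothelin receptor Ednrb (0.120 and 19.9 FPKM). Several of these also respond to RA or BMP in other tissues. Values of genes more closely tied to crest, chosen after they were seen, did not all follow. Sox9 was at 0.239 and 3.12 FPKM, but Sox10, which marks migrating crest, was at 1.16 and 1.95 FPKM, within 2-fold. The crest specifier Foxd3, also an ESC gene, was lower in NCs (4.70 and 0.334 FPKM), and the crest receptor Ngfr was at 3.0 and 2.31 FPKM.

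Surface ectoderm and placode genes, which share the border with the crest, were split. Of the 17, 14 had a mean of at least 0.5 FPKM, of which 6 were higher and 5 lower in NCs, with a median log2 ratio of -0.02. Gata3, an early marker of non-neural ectoderm, was at 0.204 and 4.02 FPKM, whereas Grhl3 (8.65 and 0.649 FPKM), Foxi3 (6.15 and 0.300 FPKM) and Grhl2 (5.62 and 1.33 FPKM) were lower. The epidermal marker Trp63, chosen after its values were seen, was at 0.00900 and 0.0234 FPKM.

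Genes of the BMP pathway, which acts upstream of Msx and Tfap2 genes in the embryo, were mostly higher in NCs. Of 14, 13 had a mean of at least 0.5 FPKM, of which 8 were higher and 1 lower, with a median log2 ratio of 1.12. Id3, Id2 (11.5 and 167 FPKM) and Id1 (16.5 and 149 FPKM), direct readouts of BMP signaling, and the inhibitory Smad6 (2.73 and 13.1 FPKM) had the largest differences. Not all genes of this list followed. Id4 was the lower gene, by 2.16-fold, and 4 genes, Bmp4, Smad5, Smad7 and Bambi, lay within 2-fold. Id4 and these 4 genes were picked out after their values were seen. Of the Wnt ligands and readouts, 5 of 8 had a mean of at least 0.5 FPKM, of which 3 were higher and 2 lower, and with each column scaled to its sum 3 were higher and 0 lower. Wnt1, a ligand of the dorsal midline, was at 0.00633 and 1.77 FPKM, and the readout Axin2 at 3.07 and 8.81 FPKM. The 2 lower genes, picked out after their values were seen, were Lef1 (2.69 and 1.29 FPKM) and the ligand Wnt8a (1.23 and 0.512 FPKM). The part of BMP and Wnt signaling in the Msx and Tfap2 levels was not tested.

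The genes of the epithelial to mesenchymal transition, in which Snai2 and Twist1 act, were divided, with 5 of 10 at least 2-fold higher in NCs and 5 lower, and the list pools mesenchymal with epithelial genes. The 5 higher genes were the mesenchymal genes Cdh2 and Vim and the repressor genes Snai1, Zeb1 and Zeb2, and the 5 lower were the epithelial adhesion and junction genes Cdh1, Epcam, Cldn6 and Cldn7 and the matrix gene Fn1, which mesenchymal cells also express. Cdh2, the N-cadherin of neural and mesenchymal cells, was at 2.28 and 35.5 FPKM. The epithelial claudin Cldn7 was at 42.3 and 8.45 FPKM, and fibronectin, Fn1, at 155 and 42.5 FPKM. Cdh1, the E-cadherin that Snai proteins repress, was at 124 and 38.0 FPKM, 3.26-fold lower. Vimentin, Vim, was at 76.7 and 192 FPKM, Zeb2 at 0.621 and 3.45 FPKM, and the epithelial Epcam at 105.9 and 29.8 FPKM. Vim, Zeb1, Zeb2, Cdh1, Epcam and Cldn6 were chosen after their values were seen.

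Markers of mesoderm, in which Twist1 and Msx genes also act, were measured in the same samples. Of 10 paraxial and lateral mesoderm markers, 6 had a mean of at least 0.5 FPKM, of which 4 were higher in NCs and 1 lower, while the sum was 39.6 FPKM with LIF and 21.4 FPKM with RA. Hand2 (0.0447 and 3.11 FPKM), Meox1 (0.253 and 5.43 FPKM) and Foxc2 (0.189 and 3.16 FPKM) were higher and Tcf15 (36.4 and 5.37 FPKM) was lower. The early mesoderm genes Msgn1 (0.0707 and 0.0567 FPKM) and Mesp1 (0.133 and 0.110 FPKM), chosen after their values were seen, were low in both. Without Tcf15, the list summed to 3.22 and 16.0 FPKM. The part of mesoderm cells in the Twist1 and Msx levels was not tested.

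Of 10 neural progenitor and neuron markers, 8 had a mean of at least 0.5 FPKM, of which 3 were higher and 3 lower, and the sum was 70.1 FPKM with LIF and 120.2 FPKM with RA. The progenitor genes Pax6 (3.64 and 65.2 FPKM) and Sox1 (1.77 and 21.8 FPKM) were higher, but the neuronal genes Tubb3 (33.4 and 7.54 FPKM) and Neurod1 (10.1 and 0.259 FPKM) were lower in the cells labelled neuronal.

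**Figure D4:**
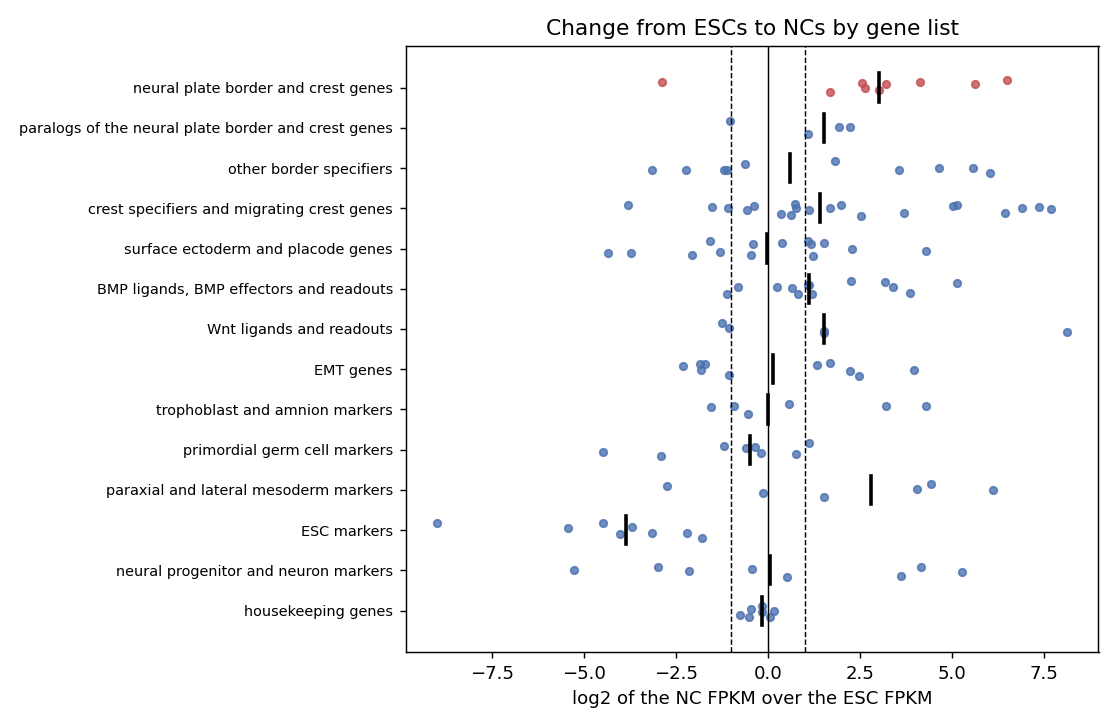
Log2 ratio of NC over ESC FPKM for each gene with a mean of at least 0.5 FPKM (points), by gene list, with the list median as a thick tick and the 2-fold limits as dashed lines. The neural plate border and crest genes (red) have a median of 3.03, with Tfap2c alone on the lower side, and all 8 ESC markers lie below the lower limit.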

How the data were processed

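RNA-seq libraries were made from 3 ESC and 3 NC samples. Per the study's methods, the authors aligned reads to mm10 with TopHat2 (version 2.0.8, running Bowtie2 version 2.1.0) and assembled and quantified transcripts with Cufflinks 2.0.2, Cuffmerge and Cuffdiff. The release of the UCSC genes and the Cuffdiff version are not given in the sources used here. The authors deposited FPKM values, with 1 value for each gene in each condition because Cuffdiff pooled the replicates. The NC column is headed FPK and was read as FPKM. The authors' columns of fold change, test statistic, p-value, q-value and test outcome were not used.

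Ratios were taken without a pseudocount, and a gene was counted as higher or lower when the ratio was at least 2 and the mean of both conditions at least 0.5 FPKM. This replaces a test, because no replicate values are in the table. The 10 genes, the gene lists and the limits were chosen with earlier results of these data known. The text names all 10 genes and, of each list, up to 4 genes with the largest log2(FPKM + 1) difference and those listed at 0 or not found. A gene that this rule would name is not reported here. Other genes are marked as chosen after their values were seen.

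Depth per sample is unknown. Fragment numbers are estimates from low values among single-transcript genes, where 1 fragment per kb was taken as 0.0138 FPKM in ESCs and 0.0136 FPKM in NCs. Each is the median of the values inside a preset window, the same for both conditions, so their closeness follows from the window. Values outside the window were left out, and a smaller step in either condition would not have been seen. Only 51.1% and 35.9% of these lowest values lay on such a step, and the estimates use each gene's longest transcript, so they are approximate. Family sums, list sums without a single gene, fragment estimates and neighboring genes were added after the data were seen. Names were repeated in 426 rows. Levels listed at 0 in both conditions were found in 3653 rows. Gene positions are from GENCODE M21 on GRCm38. The computation ran in Python 3.11.15 with pandas 2.3.3 and was tested on simulated data. Pseudocounts, column scaling, the mean filter and the fold limit were varied.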

Additional observations from a re-analysis of the deposited data

How the results depend on the processing

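The counts of 8 higher and 1 lower among the 10 genes were the same with a pseudocount of 0.1 or 1, with centring, with scaling to the column sum and with a fold limit of 1.5. The count of higher genes was 9 with no mean filter, 7 with a mean of at least 1 FPKM and 7 with a fold limit of 4, and the lower count stayed at 1. The share of all genes called higher was 7.70% with a pseudocount of 1, 19.7% with no mean filter, 21.0% with a fold limit of 1.5 and 4.99% with a limit of 4. The share called lower was 6.98% with a pseudocount of 1, 19.4% with a limit of 1.5 and 3.65% with a limit of 4. A pseudocount of 1 reduced the log2 ratio of Tfap2b from 6.50 to 1.95 and that of Msx1 from 5.62 to 2.60, without moving either across the 2-fold limit. Dlx5 was the gene added with no mean filter. That setting counts as higher every gene listed at 0 in ESCs and above 0 in NCs, also in the share of all genes. A ratio against 0 has no finite value, and the log2(FPKM + 1) difference of Dlx5 was 0.13. No direction reversed among the ratios of the 10 genes under these settings. The median of the other border genes was -0.87 with a mean of at least 1 FPKM, against 0.58. The median of the crest genes was 0.85 with a pseudocount of 1, against 1.41. With scaling to the column sum, the lower counts went from 4 to 2 for the other border genes, from 2 to 0 for the Wnt genes and from 1 to 0 for the BMP genes, and with a pseudocount of 1 they were 2, 0 and 0. The count of genes at least 8-fold higher among the 10, examined after the data were seen, was 5, and 3 with a pseudocount of 0.1, 0 with a pseudocount of 1 and 4 with a mean of at least 1 FPKM. The cause of these shifts was not tested.

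No paired analysis was possible because the table holds 1 pooled value per condition. For the same reason, leaving out a replicate was not possible. Neither the spread between cultures nor the depth of any library is known, so the size of each ratio has no error attached.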

Other observations

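On each side of each of the 10 genes, the nearest coding gene whose symbol has a single row was looked up after the main results were seen. Coding genes without such a row, for example under another symbol, were passed over, so that a nearer coding gene may lie between. Of these 20 neighbors, 10 had a mean of at least 0.5 FPKM, of which 5 were at least 2-fold higher in NCs and 1 was lower. Over all genes with such a mean, 12.6% were higher and 10.7% lower. Among the higher neighbors, Stx18, Efcab1 and Hdac9 were close to the 2-fold limit, with log2 ratios of 1.18, 1.04 and 1.12. Itga3, an integrin gene 43.3 kb from Dlx3, was at 19.97 FPKM with LIF and 72.9 FPKM with RA. Bmp7, a BMP ligand gene 309.4 kb from Tfap2c, was at 7.14 and 16.5 FPKM, higher in NCs where Tfap2c was lower. Gcnt2, 121.4 kb from Tfap2a, was at 13.7 and 2.96 FPKM, lower where Tfap2a was higher. Zfp511, 5.55 kb from Msx3, differed little between the conditions, at 22.7 and 21.2 FPKM. Tfap2d, 42.6 kb from Tfap2b, was listed at 0 in both, beside the gene with the largest ratio.

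The housekeeping genes give a reference for these ratios. Of 8, 7 had a mean of at least 0.5 FPKM and all 7 lay within 2-fold, with a median log2 ratio of -0.16. Hprt, at 0.242 and 0.465 FPKM, was low in both conditions, and E14Tg2a is a line selected for loss of Hprt.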
